A study of Mus musculus with 12 samples.

Results

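Collagens are secreted or membrane proteins whose chains wind around each other in a long helix, and each chain is the product of its own gene. The 44 collagen chain genes described here are the rows of the expression table, out of 32494 listed genes, whose symbol is Col, a collagen type number, the letter a and a chain number. They were sorted by the textbook classes of the proteins into 11 fibrillar chains, 6 chains of collagen IV of basement membranes, and 27 others. The others comprise 9 fibril-associated chains with interrupted helices (FACIT), 6 collagen VI chains, 4 of network and anchoring collagens, 4 transmembrane chains, 2 multiplexins and 2 unclassified chains.

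The libraries came from hypothalamus of 12 male mice. All 12 carried floxed Smc3 alleles and all received tamoxifen, with sampling 5 weeks later, and the growth protocol gives 8 week old mice without tying that age to a step. The 7 libraries labelled WT came from mice lacking the Camk2a-cre/ERT2 transgene (Cre-), and the 5 labelled cKO from mice that carried it (Cre+). The transgene is a tamoxifen-dependent Cre recombinase under the Camk2a promoter, which is active mainly in excitatory neurons of the forebrain and not in cells of vessels and meninges. No group with intact Smc3 alleles or without tamoxifen was analysed here. Smc3 is a core subunit of the cohesin ring.

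Fibrillar collagens I, II, III, V and XI assemble into banded fibrils, in which the minor chains of types V and XI set fibril diameter. Collagen IV forms the sheet beneath endothelium that surrounds brain vessels, and multiplexins, collagen VI and collagen VII sit at or next to such sheets. In brain, type I and III chains come mainly from meningeal and perivascular fibroblasts, whereas several other chains, Col25a1 and Col11a1 among them, are made by neurons.

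Depth was 17126005 to 24010001 reads in 11 libraries and 68744112 in WT 1. A count of 3 reads, the smallest level taken as measurable, stood at 0.0436 CPM (reads of a gene per 1000000 reads) in WT 1 and at 0.124 to 0.178 CPM in the other libraries, counting error only. Smc3, the check of the labels, averaged 81.6 ± 3.14 CPM (SD, n = 7) under the WT label and 131 ± 10.3 CPM (SD, n = 5) under the cKO label, opposite to what the label says (log2 fold change 0.67, SE 0.05, limma adjusted p-value 3.06e-05). That value covers the whole gene, and the floxed exons were not read separately. Directions below therefore refer to the libraries labelled cKO and not to a loss of Smc3. Hypothalamic markers were detected in every library, but at levels that set libraries of 1 group far apart, and Nr5a1 was at 0 in at least 1. Their sum ran from 225 to 928 CPM in the libraries labelled WT and from 302 to 909 CPM in those labelled cKO, and Oxt, the oxytocin gene, from 0.651 to 348 CPM and from 0.280 to 231 CPM. The part of such differences in tissue content in the results below was not tested beyond the marker scores given there. The labels do not state litters or cages. Each mouse was treated as independent, and the p-values take no account of litters or cages that mice may have shared.

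Collagen chain transcripts past the threshold were all lower in the libraries labelled cKO, and they included fibrillar, basement membrane and other chains. Of the 44 chains, 41 had a mean of at least 1 CPM and were tested, each with a mean above that level in both groups. By limma, 18 of the 41 (43.9%) were lower and 0 were higher at an adjusted p-value of 0.05 over all 15359 tested genes. Among all tested genes 7.60% were lower and 6.54% higher, 1168 against 1004, a split that became 1054 against 1377 when libraries were centred on their median. At an unadjusted limma p-value of 0.05, 25 chains were lower and 0 higher, where 4773 of the 15359 tested genes passed in either direction. By edgeR and by DESeq2, 18 chains were lower and 0 higher. Of all tested genes edgeR called 1165 lower and 1044 higher, and DESeq2 1525 and 1222. The median log2 fold change of the 41 chains was -0.38, against 0.0092 for all tested genes. The fold change was below 0 in 38 of 41 chains, where 47.5% of all tested genes were below 0, and was -0.5 or lower in 15 chains, where the share of all tested genes was 2.06%. The group ranges were separate, with all libraries labelled cKO lower, in 10 of the 41 tested chains and in 3.20% of all tested genes. Because tissue RNA was measured in bulk, fewer cells of a type and less RNA per cell cannot be told apart. Col5a1 did not fall alone.

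**Figure D1:**
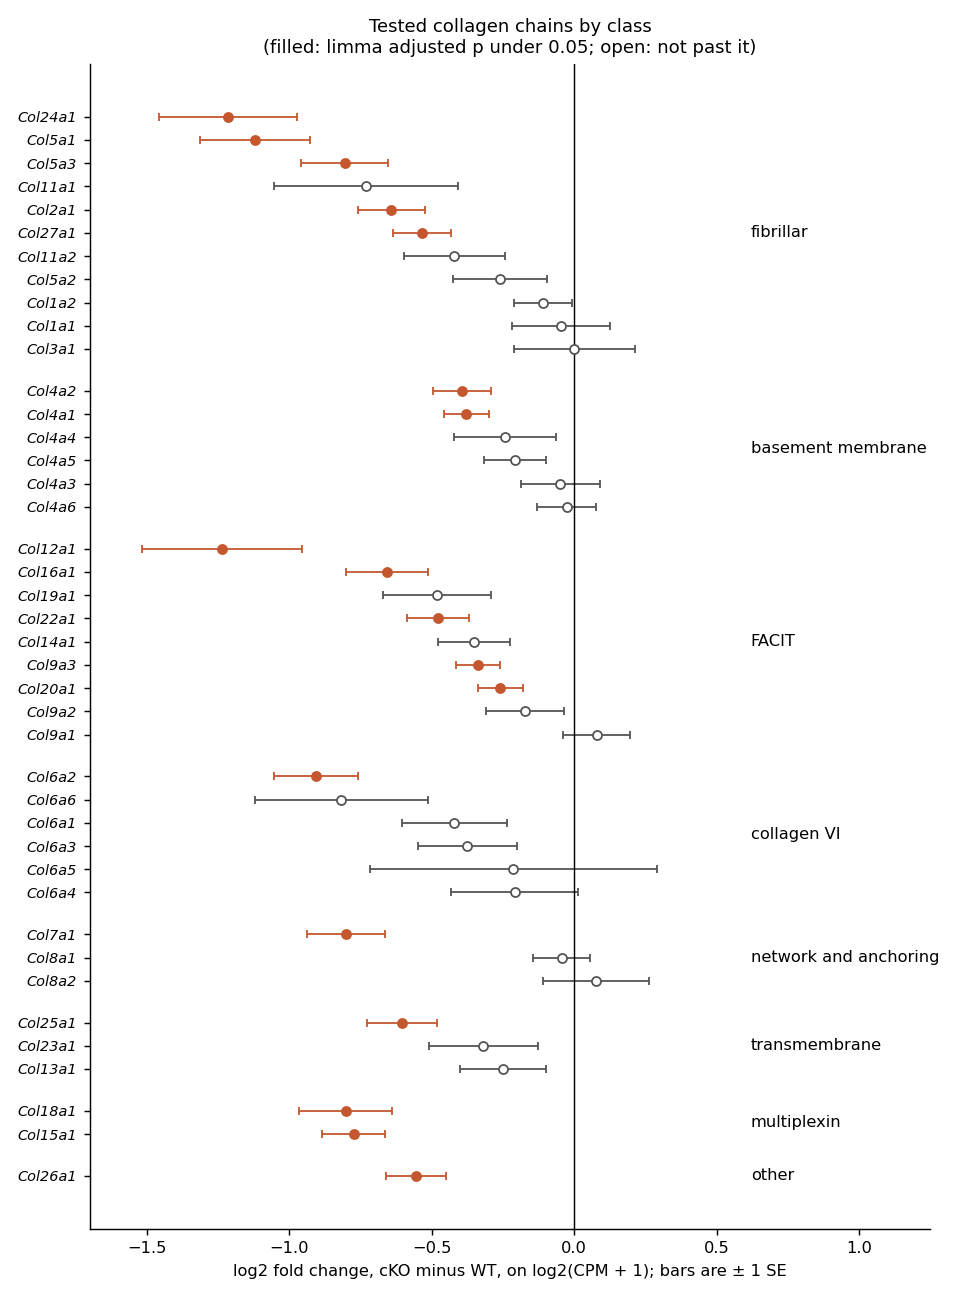
Log2 fold changes (cKO minus WT, on log2(CPM + 1)) of the 41 tested collagen chains, grouped by class, with bars of 1 SE from limma. Filled points mark the 18 chains past an adjusted p-value of 0.05, all to the left of 0, and open points the other 23.

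Among fibrillar chains, 5 of 11 were lower and 0 higher, with a median log2 fold change of -0.53. The lower ones were Col24a1, Col5a1, Col5a3, Col2a1 and Col27a1. Col5a1 encodes the pro-alpha1 chain of collagen V, the chain that all main forms of this regulatory fibril collagen contain. It was at 4.00 to 11.4 CPM with a median of 6.97 in the libraries labelled WT. In those labelled cKO, given here and below in the order cKO 8, 9, 12, 13 and 14, it was at 3.31, 2.21, 2.75, 3.56 and 2.07 CPM. The highest library labelled cKO lay below the lowest labelled WT, WT 5 at 4.00 CPM, and the gap between them was small beside the spread within WT. The group means were 7.44 ± 2.50 CPM (SD, n = 7) and 2.78 ± 0.657 CPM (SD, n = 5), a ratio of 0.374, with an exact permutation p-value of 0.00253 (log2 fold change -1.12, SE 0.19, limma adjusted p-value 0.00464). These values rested on 35 to 643 reads. With the thalamic marker score described below as a covariate, Col5a1 was not past the threshold (log2 fold change -0.99, limma adjusted p-value 0.0552). Col5a1 has 113 exon bases in common with the antisense gene Gm13372, which reached at most 0.168 CPM in any library.

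The upstream windows of 3 fibrillar genes are printed to set the start of Col5a1 beside that of Col5a3, which also fell, and of Col3a1, which gave a fold change near 0. They are the 250 bases before the annotated start, from RefSeq on GRCm38.p6, and the table held such a window for 35 of the 44 members. Capitals mark matches on either strand to 3 promoter motifs, which do not overlap one another in these windows. The letters TATAAA are the core of the TATA box. The CCAAT box is named for its letters, and the letters GGGCGG form the GC box. The windows lie at chr2:27886175-27886424 (plus strand), chr9:20815068-20815317 (minus strand) and chr1:45311288-45311537 (plus strand).
Col5a1: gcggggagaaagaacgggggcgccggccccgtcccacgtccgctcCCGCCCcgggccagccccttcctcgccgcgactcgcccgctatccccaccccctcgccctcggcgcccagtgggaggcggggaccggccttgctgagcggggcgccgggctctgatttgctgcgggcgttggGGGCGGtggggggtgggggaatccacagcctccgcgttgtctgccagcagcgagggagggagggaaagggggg
Col5a3: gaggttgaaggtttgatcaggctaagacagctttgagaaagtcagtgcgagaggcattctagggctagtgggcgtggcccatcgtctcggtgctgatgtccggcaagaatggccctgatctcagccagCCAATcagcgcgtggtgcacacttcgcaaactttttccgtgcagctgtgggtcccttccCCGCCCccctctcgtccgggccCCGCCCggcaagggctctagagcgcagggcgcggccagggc
Col3a1: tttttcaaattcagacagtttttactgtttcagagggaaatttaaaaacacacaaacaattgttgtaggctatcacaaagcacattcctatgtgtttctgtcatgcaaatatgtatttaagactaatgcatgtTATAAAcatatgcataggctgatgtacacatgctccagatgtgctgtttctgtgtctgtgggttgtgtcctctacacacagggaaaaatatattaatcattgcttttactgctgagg
The Col5a1 window has 76.4% G or C and 2 GC boxes, with no TATAAA or CCAAT. The Col5a3 window has 62.8% G or C, 2 GC boxes and 1 CCAAT, and the Col3a1 window has 35.2% G or C and a TATAAA beginning 117 bases before the start. Over all 32851 windows of the table, 12.4% held TATAAA, 33.8% CCAAT and 32.7% GGGCGG. Of the 13 lower chains with a window (the first listed, where there are several), 0 held TATAAA, 6 CCAAT and 8 GGGCGG. Of the 19 tested chains not past the threshold, 3, 4 and 12 did. These are matches of letters and not binding sites.

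Col5a3 supplies a further collagen V chain. It was at 8.48 to 15.7 CPM with a median of 10.2 in the libraries labelled WT and at 7.64, 5.78, 6.30, 4.51 and 4.38 CPM in those labelled cKO, with no overlap (log2 fold change -0.81, SE 0.15, limma adjusted p-value 0.00716). Col5a2, the usual partner of Col5a1 in the collagen V trimer, was at 4.54 to 11.5 CPM with a median of 7.14 against 4.78, 5.34, 7.42, 6.36 and 6.27 CPM. Those ranges overlapped, and Col5a2 was not past the threshold (log2 fold change -0.26, SE 0.17, limma adjusted p-value 0.306).

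Col24a1, a fibrillar chain whose expression is known from developing bone and cortex, was also lower. It was at 3.68 to 8.91 CPM with a median of 8.41 in the libraries labelled WT and at 1.09, 1.86, 4.94, 3.37 and 2.43 CPM in those labelled cKO (log2 fold change -1.22, SE 0.24, limma adjusted p-value 0.00833). Its lowest WT value, 3.68 CPM in WT 11, lay below 4.94 CPM in cKO 12, so the groups overlapped. Col2a1, the main chain of cartilage fibrils, was at 5.16 to 8.996 CPM with a median of 6.81 against 4.32, 4.31, 4.48, 3.28 and 3.26 CPM without overlap (log2 fold change -0.64, SE 0.12, limma adjusted p-value 0.00640). Col27a1, a fibrillar chain also known from cartilage, was at 10.9 to 15.04 CPM with a median of 13.6 against 9.61, 8.28, 9.84, 9.31 and 6.87 CPM, again without overlap (log2 fold change -0.53, SE 0.10, limma adjusted p-value 0.00684).

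The collagen XI chains Col11a1 and Col11a2 were the most abundant fibrillar chains per transcript length in the libraries labelled WT, at 8.47 and 5.92 CPM per kb. Col11a1 was at 22.6 to 85.7 CPM with a median of 77.0 in these and at 25.3, 28.4, 52.6, 49.8 and 29.1 CPM in the libraries labelled cKO. WT 7 and WT 11 stood at 35.8 and 22.6 CPM, while the other 5 libraries labelled WT were between 73.9 and 85.7. The difference was not past the threshold (log2 fold change -0.73, SE 0.32, limma adjusted p-value 0.142). Without WT 11 it was (log2 fold change -0.96, limma adjusted p-value 0.0287). Col11a2 did not pass either (log2 fold change -0.42, SE 0.18, limma adjusted p-value 0.124), but did with the thalamic marker score described below as a covariate (-0.82, 0.0316).

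The abundant chains of ordinary connective tissue gave small differences. Col1a1 and Col1a2 encode the chains of collagen I, and Col3a1 that of collagen III. Col1a1 was at 6.14 to 9.91 CPM with a median of 8.13 in the libraries labelled WT and at 5.62, 8.28, 11.99, 9.35 and 5.50 CPM in those labelled cKO (log2 fold change -0.048, SE 0.17, limma adjusted p-value 0.882). Col1a2 was at 14.5 to 22.1 CPM with a median of 18.3 against 15.3, 16.7, 19.9, 17.0 and 15.6 CPM (log2 fold change -0.11, SE 0.10, limma adjusted p-value 0.498). In the other fits the log2 fold change of Col1a2 ran from -0.30 to -0.031, and it passed the threshold, lower, only with arrayWeights. Col3a1 was at 2.02 to 5.07 CPM with a median of 4.49 against 2.27, 3.87, 6.34, 4.75 and 2.66 CPM (log2 fold change 1.1e-04, SE 0.21, limma adjusted p-value 0.9997). The groups overlapped in all 3 genes, and cKO 12 was the highest library labelled cKO in each.

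**Figure D2:**
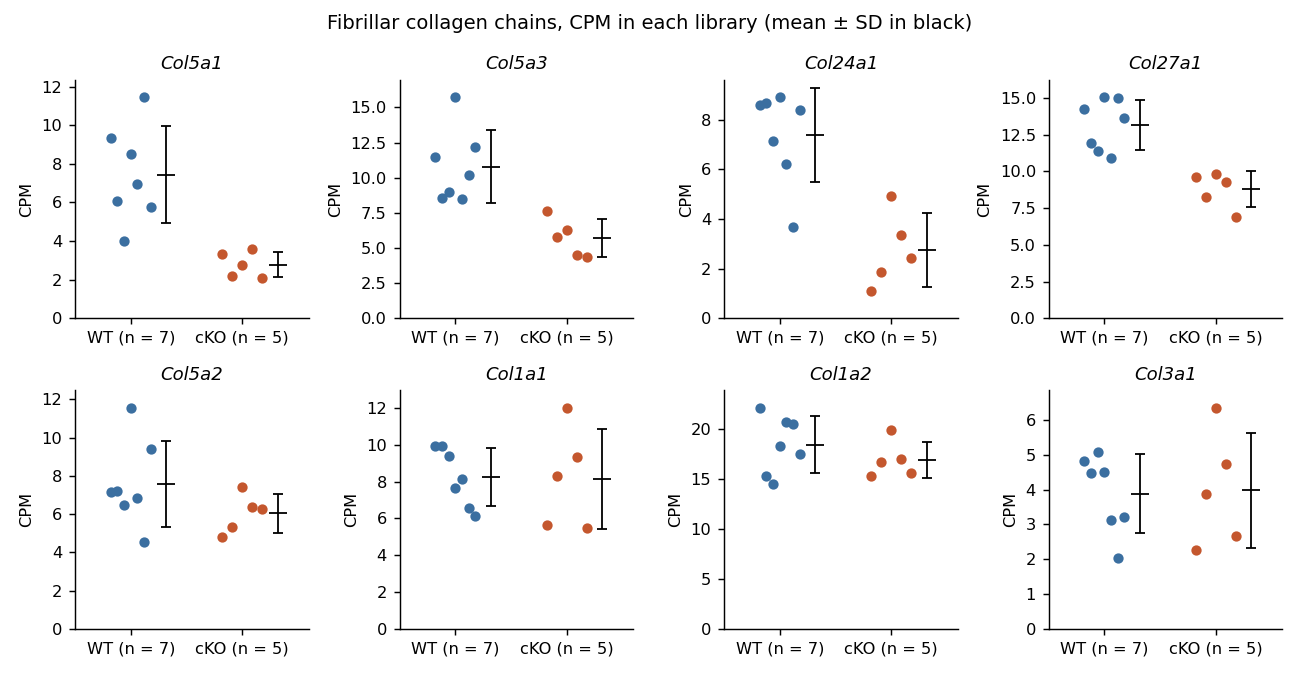
CPM of 8 fibrillar chains in each library (points, WT blue and cKO orange) with the group mean ± SD in black, each panel on its own axis from 0. In the upper row Col5a1, Col5a3 and Col27a1 have separate groups and Col24a1 overlaps, and in the lower row Col5a2, Col1a1, Col1a2 and Col3a1 overlap.

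Whether Col5a1 changed by more than each other fibrillar chain was tested on the difference of their log2(CPM + 1) values, in 10 comparisons with p-values adjusted over the 10. Labels were permuted exactly, over every one of the 792 ways to split the mice 7 to 5, two-sided, which cannot give a p-value under 0.00126. Relative to Col1a2, the change of Col5a1 in the libraries labelled cKO was -1.01 (exact permutation p-value 0.00126, adjusted 0.0126). Relative to Col1a1 the difference was -1.07 (exact permutation p-value 0.00758, adjusted 0.0253) and to Col3a1 it was -1.12 (exact permutation p-value 0.0152, adjusted 0.0303). It was -0.86 (exact permutation p-value 0.0152, adjusted 0.0303) against Col5a2 and -0.59 (exact permutation p-value 0.00758, adjusted 0.0253) against Col27a1. Differences against Col11a2, at -0.70 (exact permutation p-value 0.0328, adjusted 0.0547), and Col2a1, at -0.48 (exact permutation p-value 0.0922, adjusted 0.132), did not pass. Those against Col5a3, at -0.31 (exact permutation p-value 0.188, adjusted 0.235), Col11a1, at -0.39 (exact permutation p-value 0.494, adjusted 0.549), and Col24a1, at 0.096 (exact permutation p-value 0.813, adjusted 0.813), did not pass either. Col5a1 was thus separated from the collagen I and III chains, Col5a2 and Col27a1, and not from the remaining 5 chains, although the test against Col11a2 passed without WT 5 (adjusted exact permutation p-value 0.0216) or cKO 8 (0.0354). Between fold changes fitted with the score of thalamic markers described below, a comparison added after seeing the data and not tested, the difference shrank to -0.87 for Col1a2, -0.74 for Col1a1, -0.56 for Col3a1, -0.35 for Col5a2 and -0.33 for Col27a1. With 4 libraries labelled cKO the tests against Col1a1, Col3a1, Col5a2 and Col27a1 missed the threshold when cKO 9, 12, 13 or 14 was left out, with adjusted exact permutation p-values from 0.0530 to 0.0848.

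Of the 6 collagen IV chains, the 2 abundant ones were lower and 0 were higher. Col4a1 and Col4a2 encode the chains of the collagen IV trimer present in nearly every basement membrane, and lie head to head on chromosome 8 with 22 shared exon bases on opposite strands. Col4a1 was at 52.8 to 70.5 CPM with a median of 61.2 in the libraries labelled WT and at 44.4, 43.1, 54.2, 52.3 and 41.1 CPM in those labelled cKO (log2 fold change -0.38, SE 0.08, limma adjusted p-value 0.0107). Col4a2 was at 88.5 to 136 CPM with a median of 102 against 80.7, 71.5, 92.8, 81.1 and 69.9 CPM (log2 fold change -0.39, SE 0.10, limma adjusted p-value 0.0241). In both genes cKO 12 lay above the lowest library labelled WT, WT 11. The chains of more restricted trimers, Col4a3, Col4a4, Col4a5 and Col4a6, had log2 fold changes from -0.24 to -0.026 and none passed the threshold. Col4a3, Col4a4 and Col4a6 were below 3 CPM in every library. Col4a2 was no longer past the threshold without WT 1, cKO 9 or cKO 14, with limma adjusted p-values from 0.0522 to 0.0602. After the correction for GC content and length described below, 0 of the 6 collagen IV chains were lower by limma, with adjusted p-values of 0.0570 for Col4a1 and 0.0895 for Col4a2.

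Of the 24 tested chains outside these classes, 11 were lower and 0 higher, with a median log2 fold change of -0.40. Both multiplexins, basement membrane zone collagens that release anti-angiogenic fragments, fell. Col15a1 was at 15.3 to 27.3 CPM with a median of 19.8 in the libraries labelled WT and at 10.4, 11.6, 11.2, 12.8 and 10.8 CPM in those labelled cKO, without overlap (log2 fold change -0.77, SE 0.11, limma adjusted p-value 0.00277). Among the 41 chains its limma p-value was the smallest. Col18a1 was at 16.0 to 33.1 CPM with a median of 24.6 against 14.6, 10.8, 17.9, 15.1 and 12.3 CPM (log2 fold change -0.80, SE 0.16, limma adjusted p-value 0.00936), and only cKO 12 exceeded the lowest library labelled WT. Col7a1, the chain of anchoring fibrils known from skin, was at 5.75 to 11.2 CPM with a median of 7.15 against 3.69, 3.68, 4.80, 4.18 and 3.08 CPM without overlap (log2 fold change -0.80, SE 0.14, limma adjusted p-value 0.00449).

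Collagen VI forms beaded filaments from the chains Col6a1, Col6a2 and a longer alpha chain. Col6a2 was at 5.58 to 10.8 CPM with a median of 7.34 in the libraries labelled WT and at 4.49, 2.75, 4.71, 3.75 and 3.67 CPM in those labelled cKO, without overlap (log2 fold change -0.91, SE 0.15, limma adjusted p-value 0.00384). Its chromosomal neighbour and partner Col6a1 was at 5.67 to 12.3 CPM with a median of 7.70 against 6.34, 4.17, 7.04, 6.74 and 4.97 CPM and was not past the threshold (log2 fold change -0.42, SE 0.18, limma adjusted p-value 0.139). The difference between these 2 chains was not tested. Col6a3, Col6a4, Col6a5 and Col6a6, which can take the long chain's place, had log2 fold changes from -0.82 to -0.21 and none passed. Col6a6 did pass without WT 11 (log2 fold change -0.96, limma adjusted p-value 0.0473), without cKO 12 (-1.04, 0.0338) and with the thalamic marker score (-1.66, 0.00737).

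Among FACIT chains, which decorate fibril surfaces, 5 of 9 were lower and 0 higher. Col12a1 had the largest fold change of the 41 chains on log2(CPM + 1), but not with a pseudocount of 0.1, where it was -1.33 against -1.51 for Col24a1 and -1.35 for Col5a1. It was at 13.2 to 36.4 CPM with a median of 22.5 in the libraries labelled WT and at 3.82, 8.63, 14.5, 12.3 and 7.63 CPM in those labelled cKO, where only cKO 12 exceeded the lowest library labelled WT (log2 fold change -1.24, SE 0.28, limma adjusted p-value 0.0140). With the thalamic marker score as a covariate it was not past the threshold (log2 fold change -1.01, limma adjusted p-value 0.138). Col16a1, the most abundant lower FACIT chain per length at 8.78 CPM per kb in the libraries labelled WT, was at 36.2 to 63.5 CPM with a median of 43.3 against 28.2, 25.1, 36.4, 31.9 and 21.4 CPM (log2 fold change -0.66, SE 0.14, limma adjusted p-value 0.0121). Col22a1, known from tissue junctions in muscle, was at 1.44 to 2.54 CPM with a median of 1.69 against 1.05, 0.784, 0.9796, 1.38 and 0.8286 CPM without overlap, on 14 to 140 reads (log2 fold change -0.48, SE 0.11, limma adjusted p-value 0.0143). Col9a3, a chain of collagen IX, was at 17.0 to 20.9 CPM with a median of 19.8 against 15.1, 13.4, 14.8, 18.8 and 13.6 CPM (log2 fold change -0.34, SE 0.08, limma adjusted p-value 0.0151). With the thalamic marker score Col9a3 missed the threshold at a like fold change (-0.34, limma adjusted p-value 0.0904). Its partners Col9a1 and Col9a2 had log2 fold changes of 0.079 and -0.17 and did not pass. Col20a1 was at 6.58 to 9.25 CPM with a median of 7.53 against 5.62, 6.76, 6.16, 6.98 and 5.92 CPM and stood closest to the threshold among the lower chains (log2 fold change -0.26, SE 0.08, limma adjusted p-value 0.0450), which it missed in 16 of 26 other fits. Col19a1 and Col14a1 had log2 fold changes of -0.48 and -0.35 and did not pass. Without WT 11 both did (-0.59 and -0.41, limma adjusted p-values 0.0447 and 0.0474), and Col14a1 also without cKO 12 (-0.44, 0.0309). With the thalamic marker score both passed as well, with the values given below.

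Col25a1 is a neuronal transmembrane collagen, also known as the precursor of a component of amyloid plaques. Its mean per length was the highest of all chains, though within its spread of Col4a2, at 19.3 CPM per kb in the libraries labelled WT. Col25a1 was at 102 to 192 CPM with a median of 123 in these and at 90.4, 81.8, 78.0, 78.7 and 86.6 CPM in the libraries labelled cKO, without overlap (log2 fold change -0.60, SE 0.12, limma adjusted p-value 0.00935). With the thalamic marker score as a covariate it was not past the threshold (log2 fold change -0.33, limma adjusted p-value 0.150). WT 11 was far above the rest of its group. Col26a1, a short collagen-domain protein, was at 8.94 to 14.2 CPM with a median of 12.6 against 7.47, 7.60, 8.07, 8.07 and 7.93 CPM (log2 fold change -0.56, SE 0.11, limma adjusted p-value 0.00713), and its 5 values in the libraries labelled cKO were nearly level. Col26a1 was not past the threshold with the thalamic marker score either (log2 fold change -0.40, limma adjusted p-value 0.0978). Col13a1, Col23a1, Col8a1 and Col8a2 had log2 fold changes from -0.32 to 0.076, and none passed. The 3 chains under the CPM minimum were Col17a1 (0.651 to 1.73 CPM in the libraries labelled WT, 0.441 to 0.760 CPM in those labelled cKO), Col28a1 and Col10a1. Col28a1 stayed under 1.39 CPM in every library, and Col10a1 between 0.0592 and 0.326 CPM, or 1 to 13 reads.

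**Figure D3:**
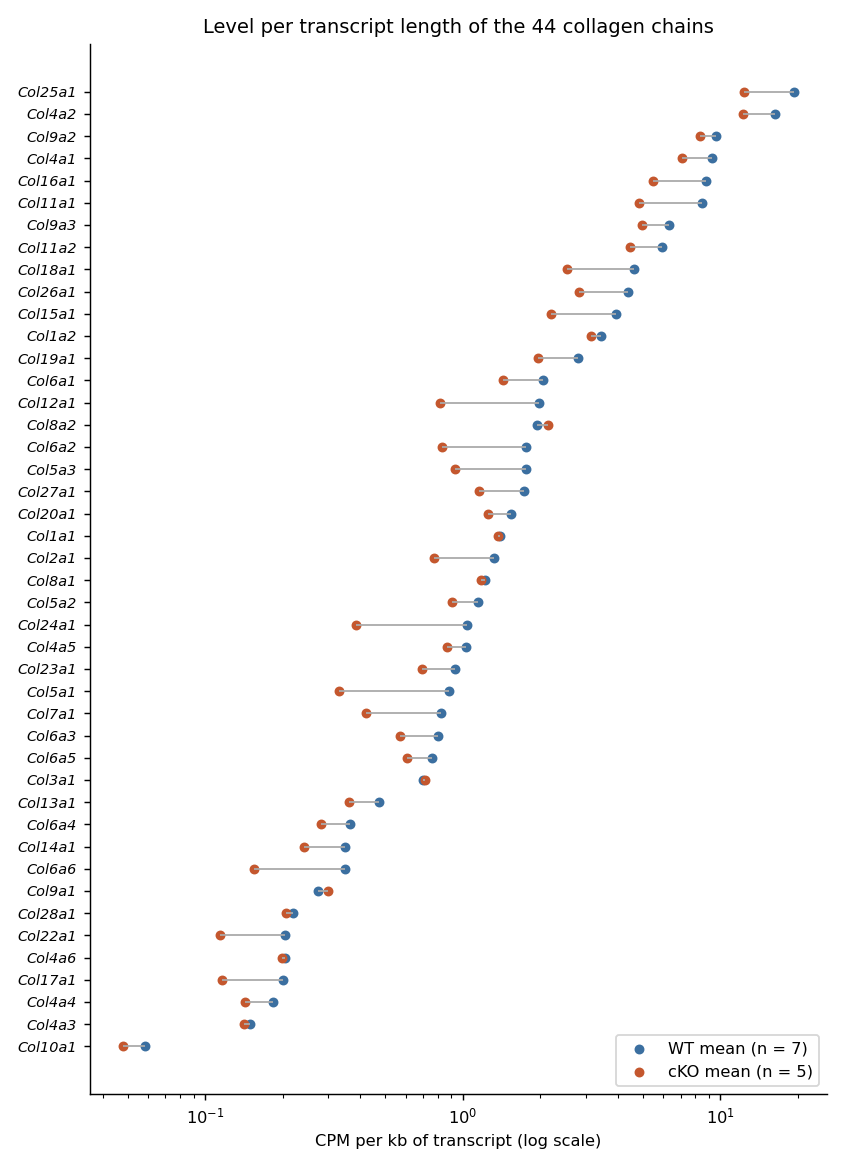
Mean CPM per kb of the longest coding transcript for the 44 collagen chains, on a log axis, in the libraries labelled WT (blue) and cKO (orange), ordered by the WT mean. Levels run from 0.0581 CPM per kb for Col10a1 to 19.3 for Col25a1 in WT, and the orange point lies to the left of the blue one in most rows.

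Per length the order of levels in the libraries labelled WT began with Col25a1, Col4a2 at 16.2 CPM per kb, Col9a2 at 9.58, Col4a1 at 9.27, Col16a1 at 8.78 and Col11a1 at 8.47. The SD over libraries was 4.50 and 2.62 CPM per kb for Col25a1 and Col4a2, so these 2 were not apart by more than their spread. It was 2.10, 0.869 and 1.82 CPM per kb for Col9a2, Col4a1 and Col16a1, and these neighbours in the order were not apart by more than theirs either. Col1a2 was at 3.44 CPM per kb and Col5a1 at 0.885. Protein-coding neighbours in the RefSeq gene order included 8 collagen pairs. In 1 of the 8, Col4a1 with Col4a2, both genes were lower. In Col6a2 with Col6a1 the first was, and in the other 6, which include Col3a1 with Col5a2, neither was.

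Single libraries were not uniform. Col11a1, Col24a1 and Col19a1, a FACIT chain of particular neurons, were lowest within WT in WT 11 and next lowest in WT 7. The score of 10 thalamic neuron markers, the mean of their log2(CPM + 1), was highest in the same libraries, at 6.75 and 6.52, against 5.62 to 6.17 in the other libraries labelled WT. Col25a1 was highest in WT 11. Within the group labelled cKO, Col11a1, Col24a1 and Col19a1 were all highest in cKO 12 and cKO 13, and the score was 4.77 in cKO 12, the lowest, but 5.61 in cKO 13 and cKO 9, 5.39 in cKO 8 and 5.81 in cKO 14. Without WT 7 and WT 11, 20 of 41 chains were lower and 0 higher by limma, where 4.26% of all tested genes were lower. These libraries were left out after the values above were seen. Leaving them out raises the WT mean of Col11a1, Col24a1 and Col19a1 by construction. Col11a1, Col19a1 and Col6a6 were gained in that fit and Col20a1 was lost, so the higher count is no separate evidence.

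**Figure D4:**
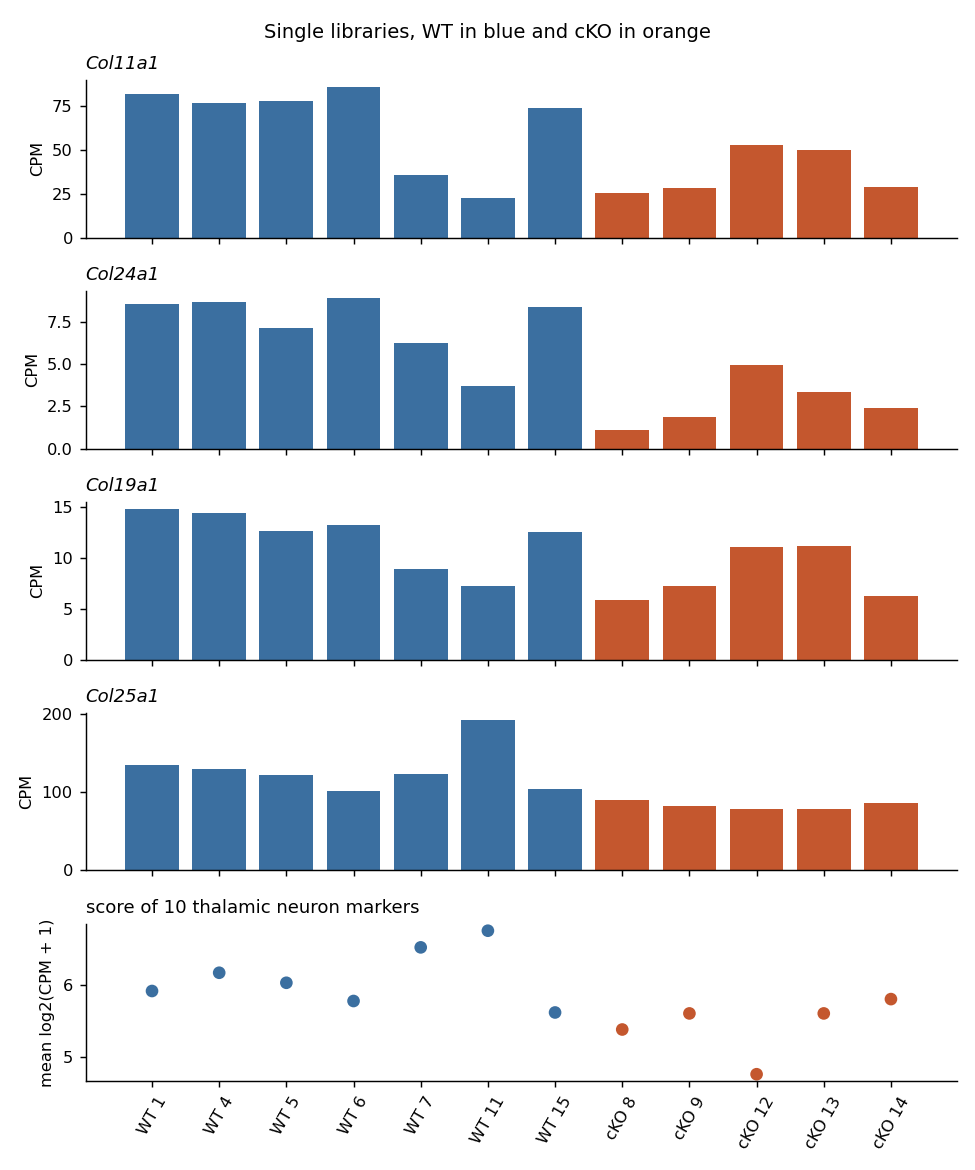
CPM of Col11a1, Col24a1, Col19a1 and Col25a1 as bars for each library, and the thalamic marker score (mean log2(CPM + 1)) as points, WT in blue and cKO in orange. WT 7 and WT 11 are low for Col11a1, Col24a1 and Col19a1 and high for the score, and the bars for Col25a1 peak in WT 11.

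Values of other cell types were set beside the collagen result. Of 10 thalamic neuron markers 5 were lower and 0 higher by limma, where 7.60% of all tested genes were lower. All 10 had a negative fold change, where 47.5% of all tested genes did. Their summed level was 680.3 to 1396 CPM in the libraries labelled WT and 420.2 to 773 CPM in those labelled cKO. With that score as a covariate, 17 of 41 chains were lower and 0 higher by limma, where 2.51% of all tested genes were lower, and 12 of the original 18 were among them. Col5a1 then missed the threshold (log2 fold change -0.99, limma adjusted p-value 0.0552), while Col11a1 passed it (log2 fold change -1.57, limma adjusted p-value 0.0160), as did Col11a2, Col19a1 (-0.91, 0.0279), Col14a1 (-0.64, 0.0253) and Col6a6. Also no longer past the threshold were Col25a1 (log2 fold change -0.33, limma adjusted p-value 0.150), Col12a1, Col26a1 (-0.40, 0.0978), Col9a3 (-0.34, 0.0904) and Col20a1 (-0.13, 0.447). Meningeal and perivascular fibroblast markers, of which 10 of 14 were tested, gave 0 past the threshold by limma, edgeR or DESeq2 and 1 at an unadjusted p-value of 0.05. Their sum was 68.7 to 112 CPM in the libraries labelled WT and 64.3 to 88.9 CPM in those labelled cKO, and 0 of the 14 were at 0 in any library. With the score of these markers as a covariate 17 of 41 chains were lower and 0 higher by limma, where 7.40% of all tested genes were lower, and Col5a1 was past the threshold (log2 fold change -1.10, limma adjusted p-value 0.00688). Endothelial markers (0 of 10 by limma, edgeR or DESeq2, and 0 unadjusted) summed to 298 to 374 CPM in the libraries labelled WT and 314 to 379 CPM in those labelled cKO. Mural markers (0 of 9 by limma or edgeR, 1 by DESeq2 and 1 unadjusted) summed to 259 to 322 CPM in the libraries labelled WT and 268 to 337 CPM in those labelled cKO, and choroid plexus markers (0 of 5 by limma or edgeR, 1 by DESeq2 and 1 unadjusted) to 28.0 to 42.3 CPM in the libraries labelled WT and 25.9 to 29.8 CPM in those labelled cKO. Of 7 oligodendrocyte precursor markers 4 were higher and 0 lower by limma, where 6.54% of all tested genes were higher. The log2 fold changes of the 7 ran from -0.049 for Sox10 to 0.39 for Gpr17. Pituitary markers (0 of 3) and cortical and striatal markers (0 of 9) did not pass by limma, edgeR or DESeq2, with 1 and 0 at an unadjusted p-value of 0.05, and Sim1 was higher and Tac1 lower among 14 hypothalamic markers. The pituitary markers summed to 3.58 to 6.51 CPM in the libraries labelled WT and 4.34 to 14.9 CPM in those labelled cKO, with the hormone gene Gh at 1.27 ± 0.964 CPM (SD, n = 7) and 4.92 ± 3.82 CPM (SD, n = 5). Gh had a log2 fold change of 1.13 (limma adjusted p-value 0.112), while the other tested pituitary markers, Lhb and Tshb, had -0.11 and -0.049. At 0 in at least 1 library were Tagln (mural), Kcnj13 (choroid plexus), Prl and Pou1f1 (pituitary) and Emx1 (cortex). For the cell types without a fit of their own, their part in the collagen result was not tested.

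Glycine and proline, the main residues of the collagen helix, have codons rich in G and C, and fold changes of all tested genes showed a GC trend. Spearman's rho between log2 fold change and transcript GC content was -0.21 across 14515 genes, which are not independent replicates. Of the 41 chains 34 had a GC content above the median of all tested genes, 50.2%. The median was 58.6% in the 18 lower chains and 52.5% in the other 23. After each library was corrected for transcript GC content and length, which took rho to 0.0082, 15 of 41 chains were lower and 0 higher by limma, against 6.55% of all genes. All 15 were among the 18, and the median log2 fold change of the 41 was -0.28. Col5a1 was past the threshold after the correction (log2 fold change -0.99, limma adjusted p-value 0.00813). Col4a1 (log2 fold change -0.27, limma adjusted p-value 0.0570), Col4a2 (log2 fold change -0.27, limma adjusted p-value 0.0895) and Col20a1 (log2 fold change -0.18, limma adjusted p-value 0.168) did not.

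**Figure D5:**
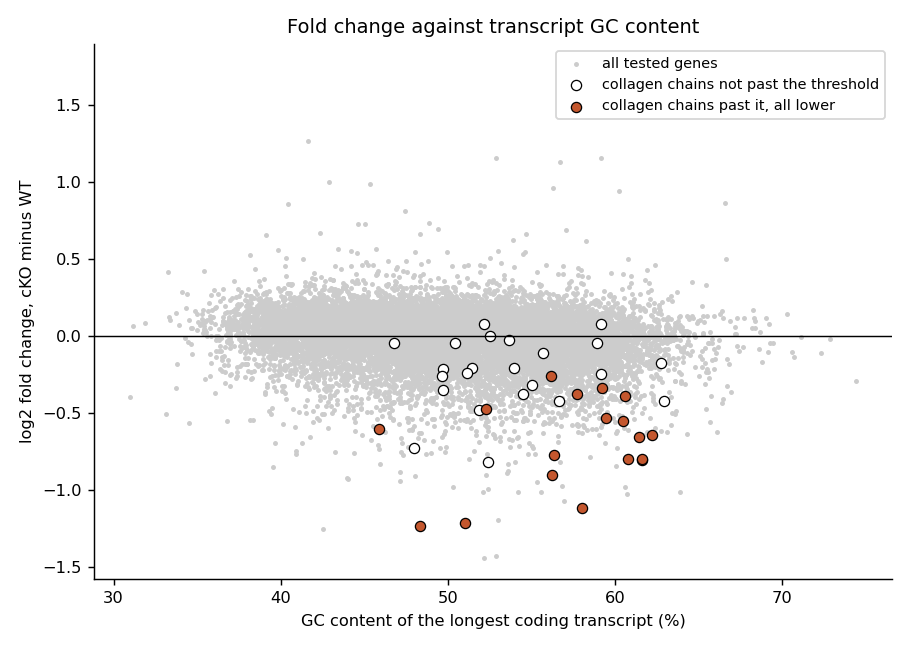
Log2 fold change against GC content (%) of the longest coding transcript for all tested genes with a value (grey) and the 41 tested collagen chains, filled where past the threshold. Lower chains occur from 45.9% (Col25a1) to 62.2% (Col2a1).

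Genes that make, bind or share the matrix with collagen were compared through 3 lists, against the background of 7.60% lower and 6.54% higher. Of 27 tested genes for modification and processing, 4 were lower and 1 higher, with a median log2 fold change of -0.040. With the thalamic marker score as a covariate 1 was past the threshold, where 588 of all 15359 tested genes were. By DESeq2 it was 8, where 2747 of all tested genes passed, and with arrayWeights 11, where 5126 did. The largest change in that list, that of the procollagen N-propeptide protease Adamts2, missed the threshold (log2 fold change -1.01, SE 0.32, limma adjusted p-value 0.0504). Adamts3, a protease of the same kind, averaged 13.7 ± 1.46 CPM (SD, n = 7) under the WT label and 9.11 ± 1.61 CPM (SD, n = 5) under the cKO label (log2 fold change -0.55, SE 0.10, limma adjusted p-value 0.00640). Bmp1, the C-propeptide protease, was lower (log2 fold change -0.46, SE 0.09, limma adjusted p-value 0.00833), and so were P3h3, a prolyl hydroxylase family member close to the threshold (log2 fold change -0.38, SE 0.12, limma adjusted p-value 0.0498), and Colgalt1, a collagen galactosyltransferase. P4ha1, a catalytic subunit of prolyl 4-hydroxylase, was higher (log2 fold change 0.28, SE 0.05, limma adjusted p-value 0.00554). Of 8 tested collagen receptors, integrin and discoidin domain receptor genes among them, 0 passed by limma, edgeR or DESeq2 and 1 had an unadjusted p-value under 0.05, with a median log2 fold change of -0.028.

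Basement membrane partners were lower in 5 of 15 and higher in 0, with a median log2 fold change of -0.0998. With the thalamic marker score as a covariate 2 were lower and 0 higher, where 2.51% of all tested genes were lower. With arrayWeights 6 were lower and 0 higher, where 17.7% of all tested genes were lower. Lama5, the laminin alpha chain of mature vessels, averaged 26.7 ± 2.94 CPM (SD, n = 7) under the WT label and 18.1 ± 1.47 CPM (SD, n = 5) under the cKO label (log2 fold change -0.53, SE 0.08, limma adjusted p-value 0.00294). Lama3 was lower (log2 fold change -0.48, SE 0.10, limma adjusted p-value 0.00947), and so were Agrn and Hspg2, the heparan sulphate proteoglycans agrin and perlecan. The remaining 10, the nidogens and Lama2 among them, did not pass.

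In the authors' deposited table, 17 of the 44 chains were lower and 0 higher at a false discovery rate of 0.05, where 3.30% of its 32494 genes were lower. All 17 of the authors' deposited table were among the 18 chains lower by limma, and the remaining one was Col20a1. The authors' deposited table gave Col5a1 a log2 fold change of -1.42 with a false discovery rate of 3.05e-06.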

How the data were processed

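Values deposited by the authors are normalized CPM per gene. Per the file headers, a further table deposited by the authors holds log2 ratios between the groups, mean log2 CPM, p-values and false discovery rates from their own comparison. The submitters' processing notes name bcl2fastq, FastQC 0.11.9, STAR 2.7.9a, SAMtools, Subread and featureCounts, and the genome build, annotation and strand setting are not given in the sources used here. Without strand, reads of overlapping antisense genes cannot be told apart. The deposited CPM values were whole multiples of 1 step per library for 100% of values (tolerance 0.01 read), so whole reads were recovered. The library sums of these CPM imply scaling factors of 0.987 to 1.02, and edgeR's TMM factors spanned that same range. No replicate pair matched within counting noise (chi-square per degree of freedom 3.04 to 26.3 over 31 pairs), and 0 value columns were left unused.

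CPM are not counts, so limma 3.58.1 in R 4.3.3 (lmFit, eBayes with trend) was run on log2(CPM + 1) for the 15359 genes whose mean reached 1 CPM, with Benjamini-Hochberg adjustment and a threshold of 0.05. Such fold changes understate those of low genes. On simulated counts 197 of 197 tested genes changed by 1 log2 unit were recovered among 15399, with 11 false calls. Recovery of smaller changes was not tested, and the median log2 fold change of the 41 chains was -0.38. A chain not past the threshold is therefore not shown to be unchanged. On the recovered reads edgeR 4.0.16 (quasi-likelihood) called 2209 genes and DESeq2 1.42.0 called 2747, and both called 18 collagen chains. Length and GC content came from the longest coding transcript in GENCODE M21, which matched 94.5% of tested genes, and the GC correction used splines with 4 degrees of freedom. Members, gene lists and tests were chosen with earlier results of these data known. For Col5a1, each chain past the threshold, Col5a2, Col11a1, Col1a1, Col1a2 and Col3a1, the text gives the lowest, median and highest library labelled WT and each library labelled cKO. From the other lists it names at most the 3 largest changes among genes past the threshold, and further genes were named after their values were seen. Of the basement membrane partners, 1 gene is not reported here by name. The GC correction and the fit without WT 7 and WT 11 were added after seeing the data.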

Additional observations from a re-analysis of the deposited data

Results flagged for a closer look

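Each group's highest and lowest library was compared with its nearest neighbour for 104 sets of values. Of these, 4 had a library set apart, and about 5.2 would be by chance.

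Col25a1 was at 192 CPM in WT 11, on 4642 reads, with the next library labelled WT at 134 CPM (WT 1). WT 11 also had the highest thalamic marker score of its group, at 6.75. Without WT 11, Col25a1 kept a lower level in the libraries labelled cKO (log2 fold change -0.51, limma adjusted p-value 0.00450). With the thalamic score as a covariate it was not past the threshold (log2 fold change -0.33, limma adjusted p-value 0.150).

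Col8a1, a network collagen of vessel walls, was at 8.04 CPM in WT 4, on 163 reads, and the next library labelled WT was WT 7 at 6.36 CPM.

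WT 1 had 68.7 M reads (M stands for 1000000) and the next library, WT 11, had 24.0 M. Without WT 1, 16 of the 41 tested chains were lower and 0 higher by limma, where 4.34% of all tested genes were lower, and all genes past the threshold numbered 1158 in place of 2172.

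The score of meningeal and perivascular fibroblast markers was 2.95 in WT 1, and the next library labelled WT, WT 5, was at 2.63. In WT 1 the fibroblast chains Col1a1, Col1a2 and Col3a1 were at 9.91, 22.1 and 4.81 CPM, the highest of the group for Col1a1 and Col1a2 and second to WT 5 for Col3a1.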

How the results depend on the processing

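No paired analysis was possible because the groups have no mouse number in common. The 18 collagen chains past the threshold became 15 to 20 in each of 13 alternatives and 30, all lower, with arrayWeights (17.7% of all genes lower), and 16 to 21 when 1 mouse was left out. In these 26 alternatives 0 chains were called higher, and 9 of the 18 were called in each: Col2a1, Col5a3, Col6a2, Col7a1, Col15a1, Col16a1, Col18a1, Col24a1 and Col27a1. All genes past the threshold numbered 5126 with arrayWeights (2405 higher, 2721 lower), 588 with the thalamic score (202 higher), 1084 without WT 7 and WT 11, and 1158 (without WT 1) to 2302 when 1 mouse was left out. Median centring gave 1377 higher and 1054 lower of all genes, and 17 lower chains. Processing genes past the threshold numbered 11 with arrayWeights, 8 by DESeq2 (2747 of all genes) and 1 with the thalamic score, and 4 to 6 with 1 mouse left out. Receptor genes numbered 2 with arrayWeights and 1 with the thalamic score, and basement membrane partners 2 with that score and 4 to 5 with 1 mouse left out. Col5a1 had a log2 fold change of -0.99 with the thalamic score (limma adjusted p-value 0.0552), and of -1.24 to -1.02 with 1 mouse left out, past the threshold each time. Smc3 ran from 0.64 to 0.75 (0.64 to 0.71 with 1 mouse left out). With a pseudocount of 0.1 the difference of Col5a1 from Col11a2 was -0.91 (adjusted exact permutation p-value 0.0295), and it also passed without WT 5 (0.0216) or cKO 8 (0.0354). With 1 mouse left out the difference of Col5a1 was -1.23 to -0.92 from Col1a1, -1.31 to -0.91 from Col3a1, -0.98 to -0.66 from Col5a2, -0.67 to -0.51 from Col27a1, -0.84 to -0.52 from Col11a2 and -0.14 to 0.33 from Col24a1, the last with either sign. With the thalamic score, untested, the difference of Col5a1 was 0.11 from Col5a3 and 0.58 from Col11a1, both of the other sign. It rose to 0.76 from Col24a1 and shrank to -0.070 from Col2a1, -0.17 from Col11a2, -0.35 from Col5a2 and -0.56 from Col3a1. Col1a1 and Col3a1, never past the threshold, changed sign: Col1a1 was 0.041 with the fibroblast score and 0.057 after the GC correction, and -0.19 to 0.063 with 1 mouse left out. Col3a1 was -0.0053 with a pseudocount of 0.1, -0.22 with arrayWeights, -0.43 with the thalamic score, -0.17 without WT 7 and WT 11, and -0.16 to 0.14 with 1 mouse left out. The 570 values tallied were those of the chains past the threshold other than Col5a1, and of Col5a2, Col11a1, Col1a1, Col1a2 and Col3a1. Of these, 526 kept direction and side, 25 lost the threshold and 5 gained it. The 14 that changed sign were all of Col1a1 and Col3a1. Other chains, Col6a6, Col11a2, Col14a1 and Col19a1 among them, were not in this tally. What caused these shifts was not tested. Col22a1 and Col3a1 have no value where a mean of 5 CPM was required. Depth limits Col10a1, Col22a1 and other chains with under 20 reads in a library.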

Other observations

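Col6a5, a collagen VI chain, varied more between mice than any other tested chain, with a coefficient of variation of 71.1% in the libraries labelled WT. It was at 14.5 CPM in WT 11 and at 1.58 and 1.63 CPM in WT 4 and WT 5, and within the group labelled cKO at 13.6 CPM in cKO 8 and at 2.29 CPM in cKO 12. Its neighbours on chromosome 9, Col6a4 and Col6a6, had coefficients of variation of 45.4% and 45.1%. Col6a6 was at 0.533 to 0.713 CPM in cKO 8, cKO 9 and cKO 14 and at 1.95 and 3.08 CPM in cKO 13 and cKO 12.

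Col8a2, a chain of the hexagonal network of Descemet's membrane, was at 15.2 CPM in cKO 8 and at 5.84 to 9.82 CPM in the other libraries labelled cKO. Across the 41 tested chains Spearman's rho of log2 fold change was -0.17 with transcript GC content and -0.24 with transcript length. With mean CPM in the libraries labelled WT it was -0.41, where log2(CPM + 1) understates the change of low chains. The same WT values also enter the fold change with a minus sign, which pushes this rho below 0, so nothing is read from it. The rho values are given as a description of chains that come from the same 12 libraries.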
